A study of Mus musculus with 38 samples.

Results

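The antioxidant and NRF2 target genes described here are 35 protein-coding mouse genes, taken by gene name from the 46078 genes counted in every library. Of these, 13 belong to the thioredoxin and peroxiredoxin system, 4 are superoxide dismutases and catalase, 5 are glutathione peroxidases, 5 make, recycle or supply glutathione, 4 are enzymes of the pentose phosphate pathway, and 4 are NRF2 itself (gene Nfe2l2), its inhibitor Keap1 and the enzymes Nqo1 and Hmox1. The rule that picks them uses gene names alone, and the list was drawn up with earlier results of these data known. All 35 passed the filter on low counts in each comparison except KO against WT on day 0, where Sod3 was too low to be tested.

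The RNA came from intestinal epithelial cells of C57BL/6 mice at days 0, 3 and 7 of an experiment with dextran sodium sulfate (DSS), a polymer that injures the colon epithelium when added to drinking water. KO mice (Hk2∆IEC) carried a floxed Hk2 allele and CRE recombinase under the Villin promoter, which is active in intestinal epithelial cells, so that hexokinase 2, an enzyme of the first step of glycolysis, was deleted in that layer. WT mice were littermates with the floxed allele and without CRE (Hk2 fl/fl). Mice on DSS were males of 10 to 12 weeks that received 1.5% DSS, both genotypes in the same cages. Day 0 mice were untreated, and neither their age nor their sex is given per sample. For untreated animals the labels name a young set (9 to 11 weeks) and an old set (86 to 92 weeks). There were 4 WT and 5 KO libraries at day 0, 7 WT and 8 KO libraries at day 3, and 7 WT and 7 KO libraries at day 7, 1 library per animal number. The series text speaks of colon tissue, whereas the sample labels speak of epithelial cells. Pan-epithelial markers summed to between 9900 and 19593 CPM in every library (counts scaled to a common library total, the unit of all levels below), and no marker of neutrophils, macrophages, T cells, B cells or fibroblasts was at 0 in any group.

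NRF2 is a transcription factor that is held in the cytoplasm and marked for destruction by KEAP1. Oxidants and electrophiles modify KEAP1, NRF2 then enters the nucleus, pairs with small MAF proteins and binds antioxidant response elements near genes for glutathione synthesis, thioredoxin reduction and NADPH supply. Peroxiredoxins, glutathione peroxidases and catalase remove peroxides, superoxide dismutases turn superoxide into hydrogen peroxide, and NADPH from the pentose phosphate pathway drives the reductases that recycle thioredoxin and glutathione. The gut epithelium is exposed to oxidants from luminal microbes, from its own oxidases and from infiltrating leukocytes.

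The sequences below show where the antioxidant response element core TGACNNNGC lies in the 250 bases upstream of the members' start sites, the kind of sequence that NRF2 and small MAF proteins bind. RefSeq promoter sequences (build GRCm38.p6) were matched for 30 of the 35 members by symbol. Both strands were searched, so a match on the opposite strand reads GCNNNGTCA. The core was found in 6 of the 30 (20%), against 11.5% of the 27025 genes with a promoter in the same table and 10.2% of all 32851 promoters of that length. The 6 genes were Prdx1, Txnrd1, Sod1, Gclm, G6pdx and Nfe2l2. The G6pdx match lies in an annotated exon of G6pdx itself and is not printed, although it counts among the 6. In the lines that follow, capitals mark the core, and each sequence is written 5′ to 3′ on the gene's own strand.
Prdx1, chr4:116685450-116685490, plus strand: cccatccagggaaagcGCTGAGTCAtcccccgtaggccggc
Txnrd1, chr10:82859098-82859138, plus strand: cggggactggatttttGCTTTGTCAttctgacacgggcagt
Sod1, chr16:90220690-90220730, plus strand: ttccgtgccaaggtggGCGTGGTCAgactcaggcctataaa
Gclm, chr3:122245407-122245447, plus strand: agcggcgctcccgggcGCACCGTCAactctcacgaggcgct
Nfe2l2, chr2:75704879-75704913, minus strand: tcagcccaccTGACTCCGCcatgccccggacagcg
The core lay 133 to 125 bases before the start site in Prdx1, 92 to 84 bases before a listed start of Txnrd1, 56 to 48 bases before that of Sod1, 134 to 126 bases before that of Gclm and 240 to 232 bases before that of Nfe2l2. The Nfe2l2 stretch also lies in an exon of the non-coding gene E030042O20Rik on the other strand. A match describes letters and not binding, and the window leaves out elements that lie farther away.

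Slc7a11, the member with the largest change described below, had no antioxidant response element core in its window. Of the 30 members it alone, 3.33%, held the amino acid response element TGATGNAA (TTNCATCA on the opposite strand), the kind of sequence bound by ATF4 in genes for amino acid supply. That element was present in 3.91% of genes with a promoter and in 3.45% of promoters, so the share of members lies near that of all genes. Only these 2 motifs were searched, with earlier results of these data known. Slc7a11 held it 2 times, on opposite strands, as shown by the capitals in the 100 bases from 120 to 21 upstream of its start.
Slc7a11, chr3:50443634-50443733, minus strand: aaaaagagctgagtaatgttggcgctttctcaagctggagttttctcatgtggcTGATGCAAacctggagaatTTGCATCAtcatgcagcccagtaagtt

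Libraries held 10503352 to 60644284 counts, so that 3 counts, taken as the floor, corresponded to 0.0495 to 0.286 CPM before scaling. Hk2 was lower in the KO libraries at day 0 (33.1 to 118 CPM) than in the WT libraries (254 to 449 CPM). At day 3 the ranges were 68.4 to 435 CPM in KO and 97.0 to 221 CPM in WT, and at day 7 they were 56.1 to 268 CPM in KO and 228 to 611 CPM in WT. The library labelled d3_KO_345 had 435 CPM of Hk2, above every WT library of days 0 and 3 except d0_WT_46 and within the WT day 7 range. Its Hk2 level thus went against its label. Its summed neutrophil markers (218 CPM) and macrophage and monocyte markers (126 CPM) were the highest of day 3 and within the day 7 ranges. Whether its genotype or its day label is wrong was not tested. This library was the highest of the 8 KO day 3 libraries for 13 members and the lowest for 9. The main counts and log2 fold changes that include it are given with and without it, whereas the KO day 3 ranges of levels include it. Another 4 libraries stood apart in the members themselves. The library d3_WT_381 was the highest of its group for 24 of 35 members, and it had the highest pan-epithelial sum (18601 CPM) and the fewest counts (26743715) of the 7. Its TMM scaling factor, by which the library total is multiplied, was 0.682, against 1.01 to 1.18 in the remaining WT day 3 libraries. A low factor raises its CPM values for all genes relative to theirs. It had the fewest genes detected of all libraries (19084). Its share of mitochondrial ribosomal RNA (3.95%) was the highest of days 3 and 7. The library d7_KO_420 was the highest of its group for 20 members and had the highest neutrophil marker sum of all libraries (2297 CPM). At day 0, d0_WT_31 was the highest of 4 libraries for 23 members and d0_KO_32 the highest of 5 for 20, and d0_KO_32 had 45.6% of its counts in mitochondrial ribosomal RNA and a TMM scaling factor of 0.487. The counting ignored strand, so for the 9 members that overlap a gene on the opposite strand (Prdx2, Prdx5, Txnrd2, Gpx2, Gclm, Gss, Slc7a11, G6pdx and Keap1) reads of the overlapping gene cannot be told apart from their own. Bulk libraries cannot tell fewer cells of a type from less RNA per cell.

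The order of levels per length of exon was much the same in the 6 groups. Txn1, the main cytosolic thioredoxin, stood first in each, with group means from 557 CPM per kb in KO day 0 to 794 CPM per kb in WT day 7. Ranks 2 to 4 were held in every group by Sod1 (cytosolic copper and zinc superoxide dismutase), Prdx6 (a peroxiredoxin that also acts on phospholipids) and Gpx2 (the glutathione peroxidase of the gut epithelium), in changing order. Gpx2 was in the fourth place on days 0 and 3, at 171 to 325 CPM per kb, and in the second on day 7, at 524 CPM per kb in WT and 391 in KO. Prdx6 moved the other way in KO, from 332 CPM per kb at day 3 to 235 at day 7. At the other end stood Slc7a11, at 0.142 to 1.07 CPM per kb, and Sod3, the extracellular superoxide dismutase, at 0.0468 to 0.421 CPM per kb. Nfe2l2 itself was well within the upper part, at 52.2 to 80.6 CPM per kb, and Keap1 at 9.36 to 12.0 CPM per kb.

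**Figure D1:**
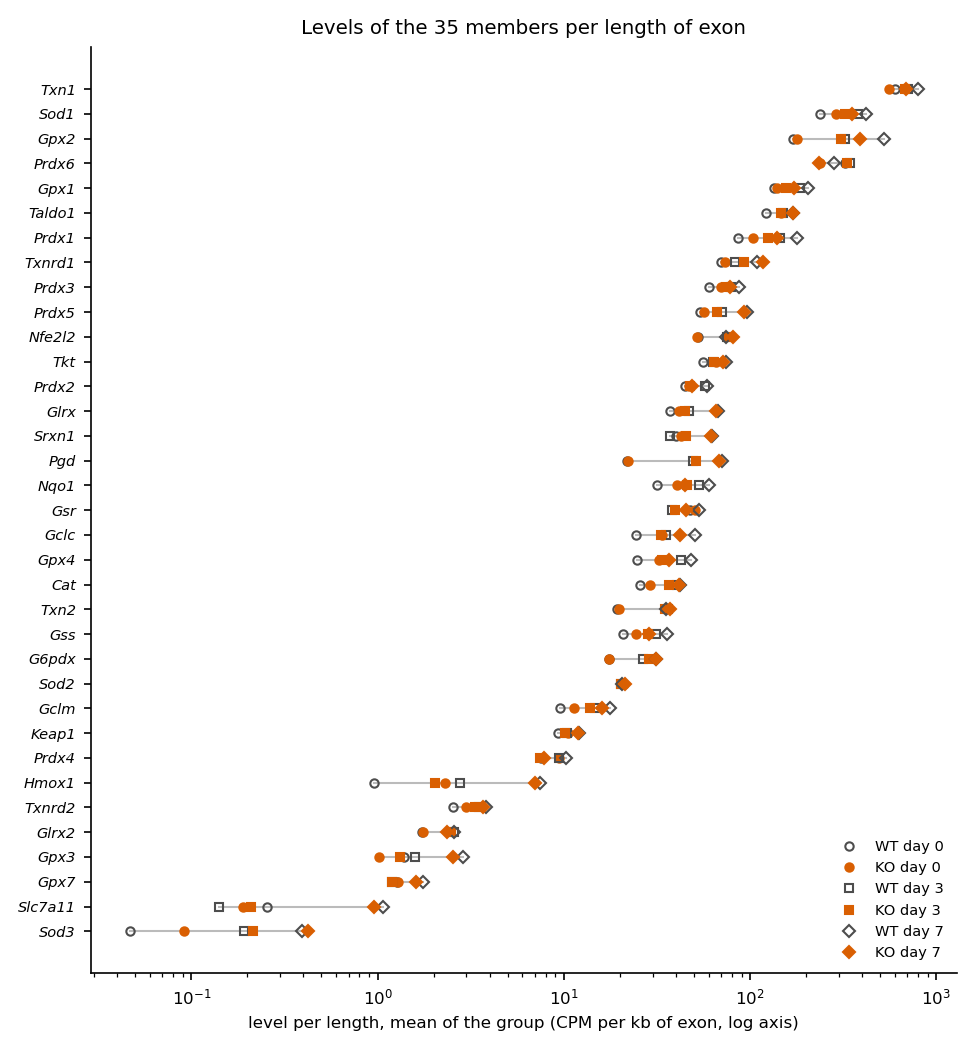
Mean level of each of the 35 members per length of exon (CPM per kb, log axis) in the 6 groups; circles are day 0, squares day 3, diamonds day 7, open symbols WT and filled symbols KO, and the grey line spans the 6 means. Txn1 is at the top in every group, and Sod3, Hmox1 and Slc7a11 have wide spans among the low genes.

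From day 3 to day 7 of DSS, 9 of the 35 members rose in WT epithelium and none fell, by edgeR's quasi-likelihood test with Benjamini-Hochberg adjustment over all genes at an adjusted p of 0.05. That is 25.7% of the members, beside 19.3% of all 15541 genes tested, of which 10.6% were higher and 8.7% lower. In KO epithelium 7 rose and 1 fell, which is 22.9% of the members beside 19.3% of 15568 genes, with 10.5% higher and 8.83% lower. At an unadjusted p under 0.05 there were 16 members in WT, beside 32.2% of all genes, and 13 in KO, beside 30.6%. A change of at least 2-fold was called for Slc7a11 and Sod3 in WT, beside 8.49% of all genes, and for Slc7a11 and Hmox1 in KO, beside 8.1%. The share of members called was near that of all genes in both genotypes. The median log2 fold change of the members was 0.18 in WT and 0.12 in KO, against 0.01 and -0.01 for all genes, and 31 and 30 of 35 members lay above 0. Both comparisons called Slc7a11, Pgd, Glrx and Txnrd1 higher, which is 44.4% of the WT calls and 50.0% of the KO calls.

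**Figure D2:**
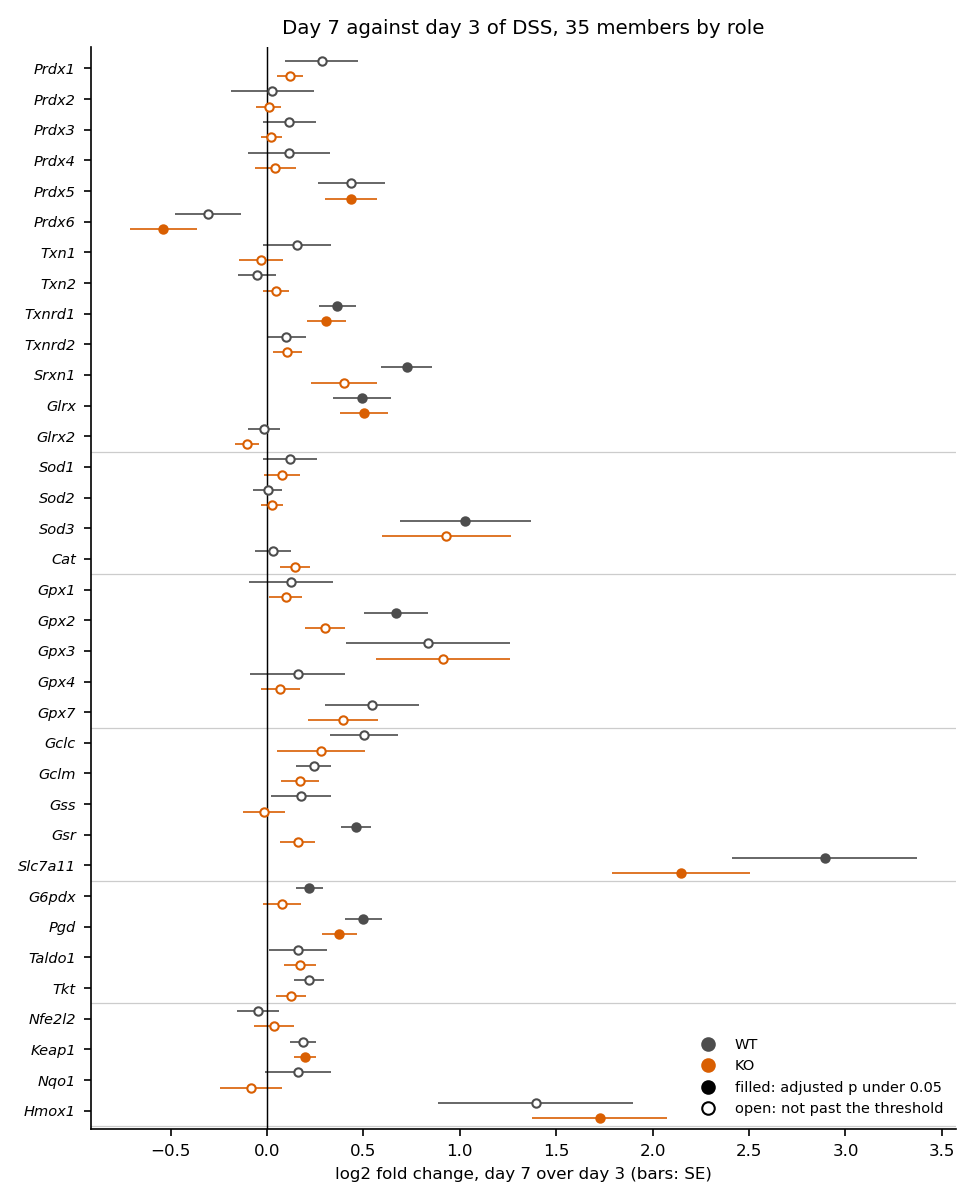
Log2 fold change from day 3 to day 7 with its SE for the 35 members in WT (grey) and KO (orange), ordered by role; filled symbols passed an adjusted p of 0.05. Slc7a11 lies farthest to the right in both genotypes at 2.89 and 2.15, and Prdx6 farthest to the left at -0.31 and -0.54.

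Leaving out single libraries moved these counts. Without d3_WT_381, 15 members were higher at day 7 in WT and none was lower, beside 25.7% of all genes. The 6 added were Prdx1 (log2 fold change 0.44 in place of 0.28), Prdx5 (0.61 in place of 0.44), Gpx7 (0.71 in place of 0.54), Gclm (0.26 in place of 0.24), Taldo1 (0.31 in place of 0.16) and Tkt (0.24 in place of 0.22). Without the library labelled d3_KO_345, 10 members were called in KO, 9 higher and 1 lower, beside 22.2% of all genes, with Sod3 and Gpx2 added. The 8 called with that library were called without it too, at log2 fold changes of 2.32 for Slc7a11, 1.88 for Hmox1, 0.46 for Glrx, 0.44 for Prdx5, 0.41 for Pgd, 0.33 for Txnrd1, 0.19 for Keap1 and -0.61 for Prdx6. Srxn1 was then at 0.46 (adjusted p = 0.074 by edgeR) and still not called. Without d7_KO_420 the KO count was 8, beside 22.4% of all genes, with Gpx2 in and Txnrd1 out. The calls that held whichever single library was left out, and in 7 other ways of fitting, were Slc7a11, Srxn1, Gsr, Gpx2, Pgd and Txnrd1 in WT, and Slc7a11, Hmox1, Glrx and Pgd in KO.

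Within the thioredoxin and peroxiredoxin system, 3 of 13 members rose in WT, and 3 rose and 1 fell in KO. Srxn1, sulfiredoxin, which repairs peroxiredoxins whose active cysteine has been overoxidised, was at 79.2, 92.7 and 139 CPM (lowest, median, highest) in WT day 3 and at 135, 179 and 218 CPM in WT day 7. Of the WT day 7 libraries, 6 lay above all WT day 3 libraries. Srxn1 changed in WT by a log2 fold of 0.72 ± 0.13 (SE), with an adjusted p of 0.0016 by edgeR. In KO, Srxn1 was at 66.7, 135 and 167 CPM at day 3 and at 144, 165 and 256 CPM at day 7, a log2 fold change of 0.40 ± 0.17 (adjusted p = 0.12 by edgeR). KO day 3 was spread over a wider range than WT day 3 and overlapped KO day 7.

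Glrx, glutaredoxin, which removes glutathione from protein thiols, rose in both genotypes. In KO it was at 49.2, 59.0 and 72.2 CPM at day 3 and at 72.3, 78.5 and 130 CPM at day 7, so the groups did not overlap, by a narrow margin. Its log2 fold change was 0.50 ± 0.13 in KO (adjusted p = 0.0091 by edgeR) and 0.49 ± 0.15 in WT (adjusted p = 0.031). In WT the call held in 4 of the 14 fits that left out 1 library, with adjusted p up to 0.071. Txnrd1, the cytosolic thioredoxin reductase and a textbook NRF2 target, was at 247, 278 and 342 CPM in WT day 3 and at 328, 362 and 470 CPM in WT day 7. Its log2 fold change was 0.37 ± 0.10 in WT (adjusted p = 0.014 by edgeR) and 0.31 ± 0.10 in KO (adjusted p = 0.041), where the call held in 8 of 15 such fits.

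Prdx6 was the only member that fell between day 3 and day 7. In KO its lowest, median and highest levels were 1068, 1551 and 2236 CPM at day 3 and 835, 1007 and 1840 CPM at day 7. The day 3 minimum was the library labelled d3_KO_345, and the remaining KO day 3 libraries started at 1316 CPM. In KO day 7 only d7_KO_420 lay above the KO day 3 median. The log2 fold change was -0.54 ± 0.17 in KO (adjusted p = 0.038 by edgeR) and -0.31 ± 0.17 in WT (adjusted p = 0.23). The KO call held in 5 of 15 fits without 1 library. Prdx5, a peroxiredoxin of mitochondria and peroxisomes, had log2 fold changes of 0.43 ± 0.14 in KO (adjusted p = 0.033 by edgeR, held in 11 of 15 such fits) and 0.44 ± 0.17 in WT (adjusted p = 0.092). The size was alike, and only the KO value passed the threshold. The remaining 8 members of this system (Prdx1, Prdx2, Prdx3, Prdx4, Txn1, Txn2, Txnrd2 and Glrx2) had log2 fold changes between -0.10 and 0.28 in both genotypes, and none passed the test.

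Among the dismutases and catalase, only Sod3 in WT was called. Sod3 was at 0.285, 0.858 and 0.987 CPM in WT day 3 and at 0.705, 1.34 and 3.02 CPM in WT day 7, levels not far above the floor. Its log2 fold change was 1.03 ± 0.34 in WT (adjusted p = 0.044 by edgeR, held in 3 of 14 fits without 1 library) and 0.93 ± 0.34 in KO (adjusted p = 0.065, and 0.0497 without the library labelled d3_KO_345). Sod1, the mitochondrial manganese enzyme Sod2, and Cat, the catalase of peroxisomes, had log2 fold changes between 0.00 and 0.15 in both genotypes. Sod2 had group means from 77.3 to 81.7 CPM over all 6 groups.

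Of the 5 glutathione peroxidases, Gpx2 in WT was the only 1 called. It was at 289, 330 and 430 CPM in WT day 3 and at 338, 546 and 837 CPM in WT day 7. Of the 7 WT day 7 libraries, 6 lay above every WT day 3 library, and the exception was d7_WT_419. This gave a log2 fold change of 0.67 ± 0.17 (adjusted p = 0.010 by edgeR). In KO it was at 294, 317 and 415 CPM at day 3 and at 335, 405 and 528 CPM at day 7, a log2 fold change of 0.30 ± 0.10 (adjusted p = 0.054). That value passed without the library labelled d3_KO_345 (adjusted p = 0.021) and without d7_KO_420 (adjusted p = 0.018). Gpx3, the secreted glutathione peroxidase, had log2 fold changes of 0.83 ± 0.43 and 0.91 ± 0.35 and did not pass in either genotype. The remaining 3 (Gpx1, the broadly expressed cytosolic enzyme, Gpx4, which reduces lipid hydroperoxides, and Gpx7 of the endoplasmic reticulum) were at 0.07 to 0.54 and did not pass either.

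Slc7a11, the transport subunit of the cystine and glutamate exchanger that brings cystine into the cell for glutathione synthesis, showed the largest fold change of all members in both genotypes. The gene spans chr3:49892526-50443614 on the minus strand in the GRCm38 annotation of the count files. At day 0 the 4 WT libraries held 2.65, 3.33, 3.94 and 4.34 CPM and the 5 KO libraries 1.79, 2.06, 2.35, 2.61 and 4.42 CPM. At day 3 the lowest, median and highest were 1.55, 1.99 and 2.51 CPM in WT and 2.06, 2.71 and 5.28 CPM in KO, where the highest was the library labelled d3_KO_345. At day 7 they were 3.77, 9.12 and 38 CPM in WT and 4.63, 9.59 and 31.1 CPM in KO. The WT groups of days 3 and 7 did not overlap, and the KO groups overlapped through the library labelled d3_KO_345 alone. The log2 fold change was 2.89 ± 0.48 in WT (adjusted p = 0.00072 by edgeR) and 2.15 ± 0.36 in KO (adjusted p = 0.00051, with a log2 fold change of 2.32 without that library and 1.80 without d7_KO_420).

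Gsr, glutathione reductase, which returns oxidised glutathione to its reduced form with NADPH, rose in WT. Its levels were 96.5, 102 and 116 CPM in WT day 3 and 126, 143 and 175 CPM in WT day 7, without overlap. This gave a log2 fold change of 0.46 ± 0.08 in WT (adjusted p = 0.00076 by edgeR) and 0.16 ± 0.09 in KO (adjusted p = 0.26). Gclc, the catalytic subunit of glutamate-cysteine ligase, the rate-limiting enzyme of glutathione synthesis, had 0.50 ± 0.17 in WT (adjusted p = 0.055) and 0.28 ± 0.23 in KO (adjusted p = 0.45). In KO day 7, 6 libraries held 98.8 to 129 CPM of Gclc and d7_KO_420 held 338 CPM. Its modifier subunit Gclm (0.24 and 0.17) and Gss, glutathione synthetase (0.18 and -0.02), did not pass.

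In the pentose phosphate pathway, Pgd, 6-phosphogluconate dehydrogenase, which makes the pathway's second NADPH, rose in both genotypes. It was at 277, 308 and 393.3 CPM in WT day 3 and at 390, 455 and 513 CPM in WT day 7. In KO it was at 248, 334 and 391 CPM at day 3 and at 375, 440 and 486.7 CPM at day 7. In each genotype the 2 groups touched only at their ends. Pgd had log2 fold changes of 0.50 ± 0.10 in WT (adjusted p = 0.0021 by edgeR) and 0.37 ± 0.09 in KO (adjusted p = 0.0082). G6pdx, the glucose-6-phosphate dehydrogenase that opens the pathway, rose in WT by 0.22 ± 0.07 (adjusted p = 0.039, held in 3 of 14 fits without 1 library) and had 0.08 ± 0.10 in KO. Taldo1 and Tkt, transaldolase and transketolase of the non-oxidative arm, were at 0.12 to 0.22 and did not pass.

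Nfe2l2 itself stayed within its spread between days 3 and 7. It was at 237, 297 and 316 CPM in WT day 3, at 223, 289 and 322 CPM in WT day 7, at 247, 301 and 321 CPM in KO day 3 and at 198, 313 and 351.4 CPM in KO day 7. The ranges overlapped nearly in full, and the log2 fold changes were -0.05 ± 0.11 in WT and 0.03 ± 0.10 in KO (adjusted p = 0.80 and 0.87 by edgeR). NRF2 is regulated mainly through its protein, which mRNA counts do not measure. Keap1 was at 43.2, 47.6 and 53.1 CPM in WT day 3, at 48.3, 55.9 and 61.6 CPM in WT day 7, at 42.9, 48.3 and 50.6 CPM in KO day 3 and at 50.4, 54.8 and 64.9 CPM in KO day 7. It rose in KO by 0.19 ± 0.06 (adjusted p = 0.024, held in 12 of 15 fits without 1 library) and had nearly the same value, 0.18 ± 0.07, in WT (adjusted p = 0.067). Nqo1, a quinone reductase often used as the readout gene of NRF2, had 0.16 ± 0.17 in WT and -0.08 ± 0.16 in KO and did not pass (adjusted p = 0.56 and 0.78).

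Hmox1, haem oxygenase 1, which breaks down haem and is highly expressed in macrophages, rose in KO. It was at 2.54, 3.96 and 7.67 CPM in KO day 3 and at 6.54, 10.8 and 40.1 CPM in KO day 7, where the day 3 maximum was again the library labelled d3_KO_345. In WT day 3, 5 libraries held 2.54 to 4.44 CPM while d3_WT_486 and d3_WT_487 held 13 and 13.1 CPM. WT day 7 held 4.98, 12.5 and 37.4 CPM. The log2 fold change of Hmox1 was 1.73 ± 0.35 in KO (adjusted p = 0.0022 by edgeR) and 1.39 ± 0.51 in WT (adjusted p = 0.065). Without d7_KO_420 the KO value was 1.27 (adjusted p = 0.0018). The WT value passed when either d3_WT_486 or d3_WT_487 was left out (adjusted p = 0.034 in both cases).

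**Figure D3:**
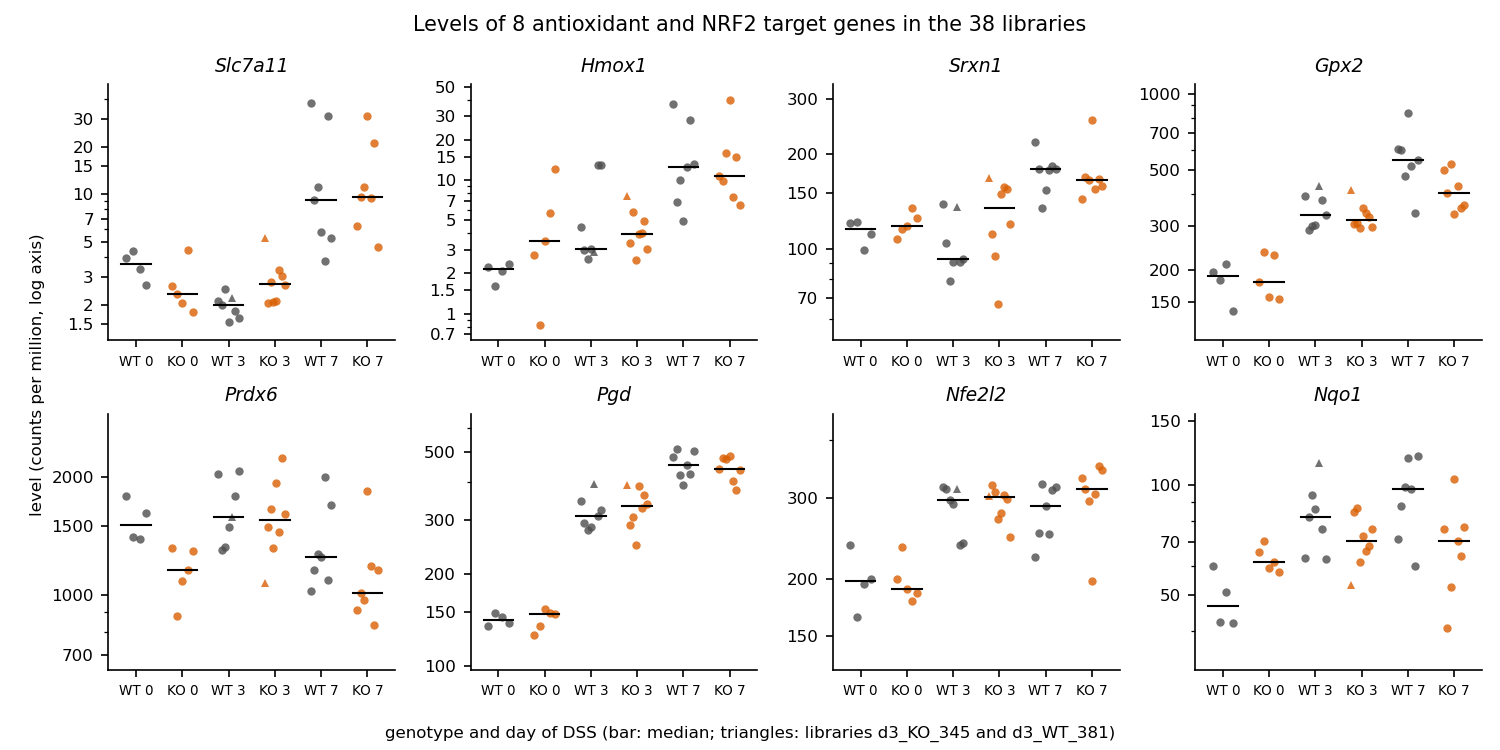
Levels of 8 members in each of the 38 libraries (CPM, log axis) by genotype and day; each point is a library, bars are group medians, and triangles mark the library labelled d3_KO_345 and d3_WT_381. Slc7a11 and Hmox1 spread upward at day 7 in both genotypes, while Nfe2l2 and Nqo1 overlap between days 3 and 7.

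Markers of infiltrating cells moved over the same interval. All 10 neutrophil markers that were tested rose in both genotypes, as did 10 of 10 macrophage and monocyte markers in WT and 10 of 11 in KO. Of all genes, 10.6% were higher in WT and 10.5% in KO. In the comparisons of genotypes, 4 of the 12 neutrophil markers passed the filter on low counts at day 3 and 11 at day 7. Most thus entered the test through their day 7 levels, which left little room for any outcome but a rise. The summed neutrophil markers were at 9.80 to 47.0 CPM in WT day 3 and 203 to 1511 CPM in WT day 7, and at 16.2 to 218 CPM in KO day 3 and 170 to 2297 CPM in KO day 7. The macrophage and monocyte sum went from 16.4 to 24.6 CPM in WT day 3 to 49.1 to 265 CPM in WT day 7, and from 16.2 to 126 CPM in KO day 3 to 59.4 to 529 CPM in KO day 7. Of the 10 pan-epithelial markers, none was called in WT and 1 fell in KO. Other lists gave 3 of 9 T cell markers higher in WT and 9 of 10 in KO, 5 of 5 and 3 of 5 B and plasma cell markers, 5 of 6 and 0 of 6 erythroid markers, and 2 of 7 and 0 of 7 small intestine markers. No fibroblast marker of 7 was called, 1 of 2 endothelial markers was lower in each genotype, goblet cell markers were lower in 1 and 4 of 7, and of 8 colonocyte markers 1 was higher in each genotype while 3 and 4 were lower. The 3 day 7 libraries with the highest neutrophil sums, d7_WT_356 (1511 CPM), d7_WT_419 (1465 CPM) and d7_KO_420 (2297 CPM), were also the 3 highest for Slc7a11 (38, 31.1 and 31.1 CPM) and for Hmox1 (37.4, 28.4 and 40.1 CPM). The macrophage and monocyte sum was ordered otherwise, with its highest values in d7_KO_368 (529 CPM) and d7_KO_366 (312 CPM). The erythroid sum was highest in d7_KO_420 (550 CPM) and d7_WT_356 (183 CPM), while d7_WT_419 (95.9 CPM) lay below d7_KO_422 (114 CPM). On day 3 the highest neutrophil sum, 218 CPM, and the highest Slc7a11 level, 5.28 CPM, were both in the library labelled d3_KO_345. In WT day 3, d3_WT_486 and d3_WT_487 had Hmox1 at 13 and 13.1 CPM with neutrophil sums of 31.8 and 42.8 CPM. These sums lay below that of d3_WT_346 (47.0 CPM) and above those of the remaining WT day 3 libraries. In the KO day 3 libraries other than d3_KO_345, the sum rested largely on 1 marker, Ly6g, with a median of 38.3 CPM. Medians there were 2.96 CPM for Il1b and 0.0674 to 0.229 CPM for S100a8, S100a9, Csf3r and Cxcr2. The library labelled d3_KO_345 held 112 CPM of Ly6g and 50.7 CPM of Il1b. The order of the sums within day 3 therefore need not follow neutrophil content. Whether RNA from infiltrating cells contributed to the rise of Slc7a11, Hmox1 and Sod3 was not tested.

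**Figure D4:**
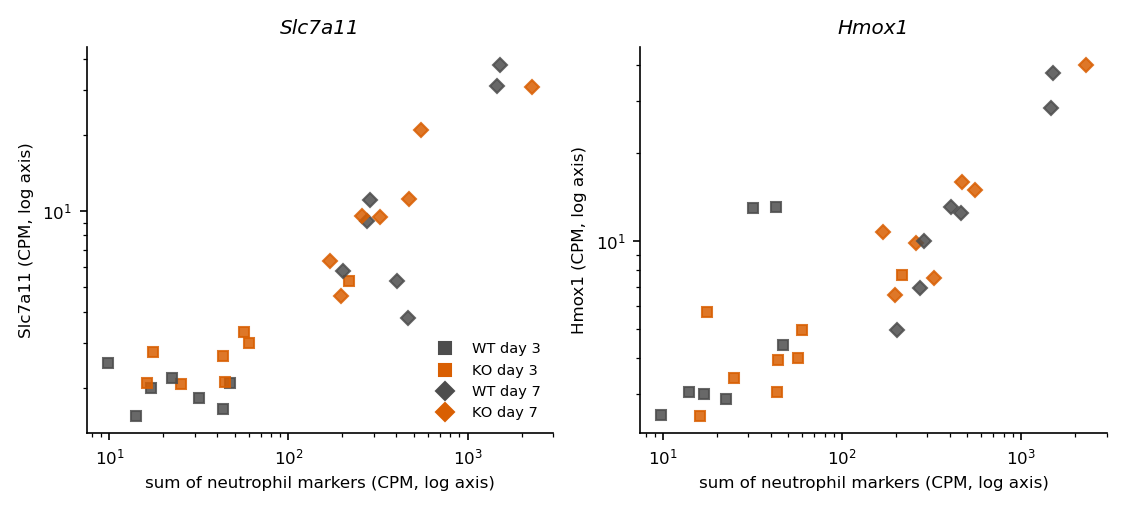
Slc7a11 (left) and Hmox1 (right) against the summed neutrophil markers (all in CPM, log axes) in the 29 libraries of day 3 (squares) and day 7 (diamonds), WT in grey and KO in orange. The 3 libraries at the far right, between 1465 and 2297 CPM of neutrophil markers, are also the 3 highest for both genes. In the KO day 3 libraries other than d3_KO_345, the sum is largely Ly6g (median 38.3 CPM).

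Other genes of the pathway, taken from lists outside the 35, moved less uniformly. Of 8 further NRF2 regulators, none was called in either genotype by edgeR, beside 19.3% of all genes. Bach1, the repressor that competes with NRF2 at Hmox1 and other targets, had log2 fold changes of -0.02 ± 0.22 in WT and -0.03 ± 0.24 in KO, with a sign that turned when single libraries were left out. Of 19 further NRF2 targets that could be tested, 2 rose and 1 fell in WT and 1 fell in KO, and their medians were -0.03 and -0.12. Those called were chosen for naming after their values were seen. They were Gsta1, a glutathione transferase (1.65 ± 0.32), Me1, the NADPH-producing malic enzyme (0.63 ± 0.15), and Ephx1, microsomal epoxide hydrolase (-0.73 ± 0.14), in WT, and Abcc1, an exporter of glutathione conjugates (-0.31 ± 0.09), in KO.

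Of 25 further glutathione, thioredoxin and NADPH genes tested, 5 rose and 2 fell in WT, and 4 rose and 1 fell in KO. That is 28% and 20%, beside 19.3% of all genes in each genotype, so the KO share lay near that of all genes. Ggt1, which splits extracellular glutathione, rose by 1.35 ± 0.35 in WT and 1.23 ± 0.38 in KO. Mgst1, a microsomal glutathione transferase, rose by 0.79 ± 0.20 and 0.44 ± 0.11. Idh1, the cytosolic NADPH-producing isocitrate dehydrogenase, rose by 0.51 ± 0.09 and 0.48 ± 0.09. Txnrd3, another thioredoxin reductase, fell by 0.45 in WT and by 0.40 in KO. Txnip, the inhibitor of thioredoxin, had 0.05 ± 0.15 and 0.04 ± 0.23 and did not pass, and the sign turned when single libraries were left out. Named after their values were seen, Chac1, which degrades glutathione inside the cell and is a target of ATF4, rose in WT (1.20 ± 0.29), Msra, a methionine sulfoxide reductase, rose in both (0.38 in each), and Nnt, the mitochondrial transhydrogenase that makes NADPH, fell in WT (-0.48 ± 0.11).

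Among genes that produce oxidants, 8 of 12 tested rose in WT and 9 in KO, and none fell. That is 66.7% and 75%, beside 10.6% and 10.5% of all genes called higher. Nos2, the inducible nitric oxide synthase, rose by 4.66 ± 0.59 in WT and 4.62 ± 0.38 in KO. Cybb, the catalytic subunit of the phagocyte NADPH oxidase, rose by 3.47 ± 0.48 and 3.25 ± 0.45, and Ncf4, one of its cytosolic subunits, by 3.25 ± 0.43 and 2.71 ± 0.46. Duox2, the epithelial dual oxidase, named after its values were seen, rose by 1.96 ± 0.30 in WT and 1.64 ± 0.23 in KO, from 105 ± 28 to 418 ± 268 CPM (SD, n = 7 and 7) in WT. Cybb and Ncf4 are expressed in neutrophils and macrophages. Whether RNA from such cells contributed to the rise of Cybb and Ncf4 was not tested.

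Deletion of Hk2 was compared with WT on each day, which asks whether loss of hexokinase 2 in the epithelium alters the antioxidant genes. No member passed an adjusted p of 0.05 by edgeR on any of the 3 days. Of all genes, 0.0335% were called on day 0, 0.00647% on day 3 and 0.00642% on day 7, so a count of 0 members lies near that background. On days 3 and 7 the 1 gene called was the pseudogene Tdpx-ps1, described at the end. The deleted gene Hk2 itself therefore did not pass on these days, and a lack of calls says little about the members. DESeq2's Wald test also called 0 members on each day. At an unadjusted p under 0.05 there were 7 of 34 members on day 0, beside 10.5% of all genes, 2 of 35 on day 3, beside 7.88%, and 6 of 35 on day 7, beside 12.9%. The members' median log2 fold change, KO over WT, was 0.07 on day 0, -0.06 on day 3 and -0.13 on day 7, and that of all genes was -0.00 on each day. Values above 0 were found in 26 of 34, 11 of 35 and 5 of 35 members. These medians moved with single libraries. On day 0 the median was 0.05 to 0.20 when each library was left out, with the highest value without d0_WT_31, 0.13 without d0_KO_53 and 0.09 without d0_KO_32. On day 7 it was -0.21 to -0.07, with the ends reached without d7_KO_420 and without d7_KO_423. It was -0.08 on day 7 without d7_WT_386 or d7_WT_419, and without d7_WT_356 it was -0.10 with 11 values above 0.

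**Figure D5:**
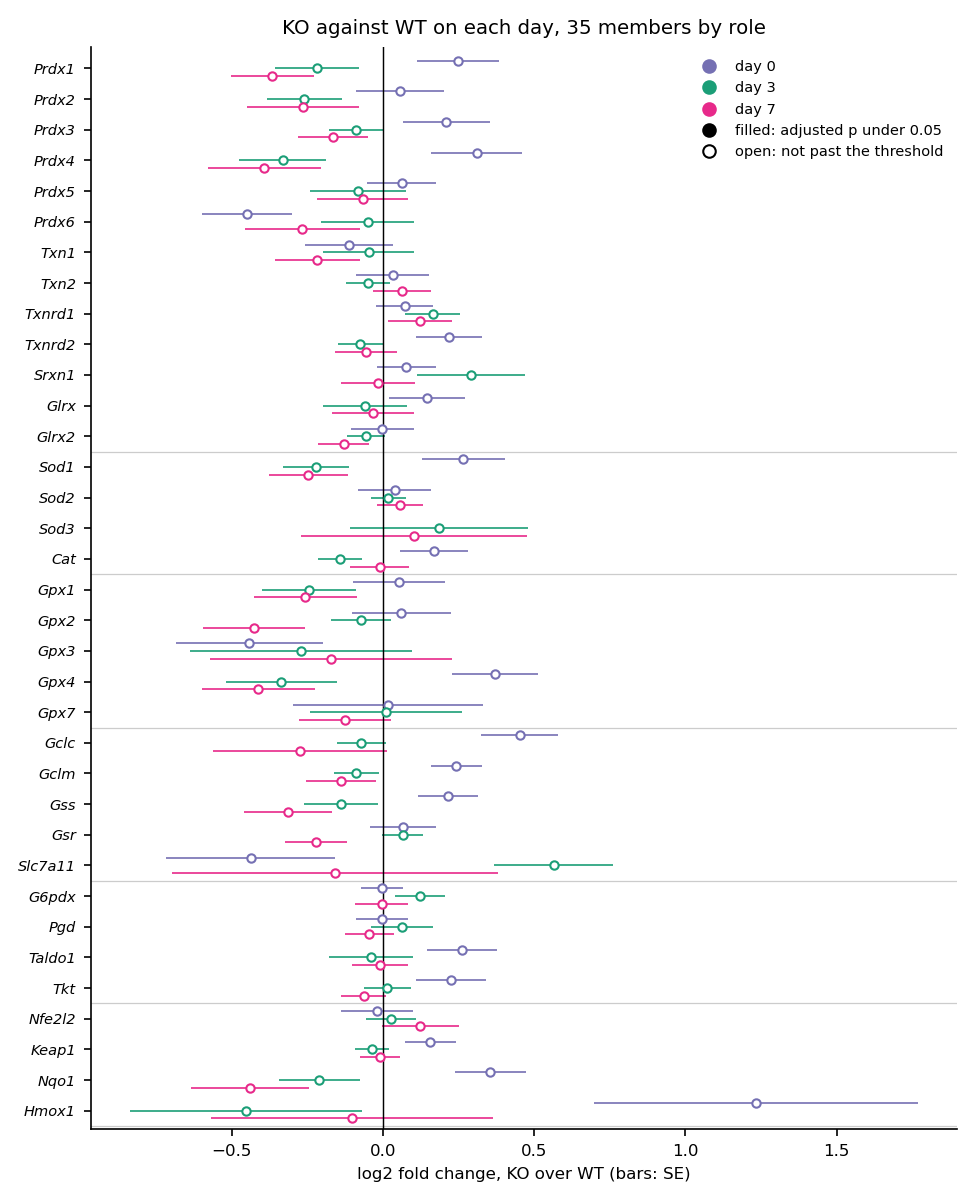
Log2 fold change of KO over WT with its SE on day 0 (purple), day 3 (green) and day 7 (pink) for the 35 members by role; open symbols did not pass an adjusted p of 0.05. All symbols are open, and most day 7 values lie to the left of 0.

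On day 0 the smallest unadjusted p-values belonged to Gclc, which was at 76.3 to 97.0 CPM in the 4 WT libraries and at 98.2 to 137 CPM in the 5 KO libraries without overlap (log2 fold change 0.45 ± 0.13, adjusted p = 0.28 by edgeR). Prdx6 was at 1385 to 1793 CPM in WT and 882 to 1314 CPM in KO, also without overlap (log2 fold change -0.45 ± 0.15, adjusted p = 0.37). Nqo1 had 0.35 ± 0.12 (adjusted p = 0.37), Gclm 0.24 ± 0.08 (adjusted p = 0.37), Gpx4 0.37 ± 0.14 (adjusted p = 0.41), Taldo1 0.26 ± 0.12 (adjusted p = 0.47) and Hmox1 1.23 ± 0.54 (adjusted p = 0.46). Hmox1 was at 1.61, 2.10, 2.24 and 2.34 CPM in the WT libraries and at 0.821, 2.74, 3.49, 5.67 and 12.1 CPM in the KO libraries, so the KO values lay on both sides of WT. Groups without overlap on day 0 were found for Prdx6, Gclc and Txnrd2, 3 members, beside 3.39% of all genes tested. On days 3 and 7 they were found for 0 of 35 members, beside 0.0323% and 0.282% of all genes.

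On day 3 the 2 members with an unadjusted p under 0.05 were Slc7a11 (0.56 ± 0.20) and Prdx4, the peroxiredoxin of the endoplasmic reticulum (-0.33 ± 0.14), both with an adjusted p of 0.62 by edgeR. Without the library labelled d3_KO_345, Slc7a11 was at 0.39 ± 0.15, the count of members called on day 3 was still 0 and their median was -0.04. Without d3_WT_381 the median was -0.00 and 16 of 35 values were above 0, in place of 11. Over all libraries left out in turn, the day 3 median was -0.10 to -0.00.

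On day 7 Nqo1 was at 60.1, 97.4 and 120 CPM in WT and at 40.7, 70.2 and 104 CPM in KO (-0.44 ± 0.20, adjusted p = 0.37 by edgeR). Gpx2 was at 338, 546 and 837 CPM in WT and at 335, 405 and 528 CPM in KO (-0.43 ± 0.17, adjusted p = 0.34). The remaining members with an unadjusted p under 0.05 were Gpx4 (-0.41 ± 0.19), Prdx1 (-0.37 ± 0.14), Gss (-0.31 ± 0.14) and Gsr (-0.22 ± 0.10), with adjusted p-values from 0.33 to 0.38. The groups overlapped for each. No member was called on day 7 when any single library was left out. The lack of calls does not show that the genotypes were alike.

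Whether the change from day 3 to day 7 differed between genotypes was tested as an interaction. None of 16371 genes passed an adjusted p of 0.05 by edgeR, so the share called was 0% for all genes and 0 of 35 for the members, and DESeq2's Wald test called 0 members as well, as did the fit without the library labelled d3_KO_345. At an unadjusted p under 0.05 there were 440 genes (2.69%) and 1 member, Gsr. The difference of its changes, KO minus WT, was -0.29 ± 0.12 on the log2 scale (adjusted p = 1.00 by edgeR). The calls made in only 1 genotype above (Srxn1, Gpx2, Gsr, Sod3 and G6pdx in WT; Prdx5, Prdx6, Keap1 and Hmox1 in KO) were therefore not shown to differ between genotypes.

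Against untreated day 0 mice, more members were called higher than lower in each comparison, but treatment cannot be told apart there from a change of library series. Age and sex, which are not given for the day 0 animals, may differ as well. Day 0 libraries came from a different library name series, held 10503352 to 44936774 counts, and had 6.25 to 45.6% of counts in mitochondrial ribosomal RNA, against 0.352 to 3.95% in the later libraries. Histone genes (names that start with Hist) held 0.266 to 0.413% of counts at day 0 and 0.0120 to 0.0541% later. Whether RNA selection was the same in both series was not tested. In WT at day 3, 18 members were higher and 2 lower, 57.1% of the members beside 46% of all genes (20.4% higher, 25.6% lower). In WT at day 7, 27 were higher and none lower, 77.1% beside 56.9% (27.8% higher, 29.2% lower). In KO at day 3, 12 were higher and 2 lower, 40.0% beside 46.3% (22.6% higher, 23.7% lower). In KO at day 7, 18 were higher and none lower, 51.4% beside 54.6% (27.3% higher, 27.3% lower). At least a 2-fold change was called for 3 and 7 members in WT at days 3 and 7, beside 20.1% and 28.3% of all genes, and for 2 and 6 in KO, beside 15.2% and 24.1%. In KO at day 3 the count was 15 (beside 45.8% of all genes) without the library labelled d3_KO_345 and 17 (49.5%) without d0_KO_32. In KO at day 7 it was 22 (56.6%) without d0_KO_32 and 20 (61.6%) without d7_KO_420. In WT it was 22 (51%) at day 3 and 28 (58.3%) at day 7 without d0_WT_31. Pgd was at 135 to 149 CPM in WT day 0 and 127 to 154 CPM in KO day 0, with log2 fold changes at day 7 of 1.66 ± 0.11 in WT and 1.61 ± 0.09 in KO and no overlap. Groups of days 0 and 7 did not overlap for 19 members in WT and 15 in KO, beside 39.1% and 34.3% of all genes. Gpx2 had 1.59 ± 0.21 in WT and 1.10 ± 0.15 in KO at day 7. Txn2, the mitochondrial thioredoxin, had already reached its level by day 3 (0.90 ± 0.11 in WT, 0.83 ± 0.09 in KO). Nfe2l2 was higher at both days and in both genotypes, with log2 fold changes from 0.47 to 0.60. Hmox1 (2.93 in WT, 1.58 in KO) and Slc7a11 (2.04 in WT, 2.30 in KO) were higher at day 7, where the Hmox1 value in KO was called in 9 of 12 fits without 1 library (1.12 to 2.20, adjusted p up to 0.073 by edgeR). Slc7a11 was lower at day 3 in WT (-0.86) and was not called in KO (0.15, and -0.03 without the library labelled d3_KO_345). Gsr was lower at day 3 by 0.34 in each genotype and was not called at day 7 (0.12 in WT, -0.17 in KO).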

How the data were processed

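Polyadenylated RNA was sequenced in paired reads of 50 bases from 38 libraries, each on 2 lanes. The authors trimmed reads with Trim Galore and aligned them with STAR to GRCm38, per the submitters' processing notes. The deposited values are whole-number counts per gene from featureCounts (version 1.6.2 per the file headers, 1.5.2 per the submitters' processing notes), counted without strand from a stranded kit. Lanes were summed. The members and all gene lists were chosen with earlier results of these data known.

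Each comparison was fitted on its own groups, over all genes that passed filterByExpr, with TMM scaling and edgeR 4.0.16 quasi-likelihood tests (R 4.3.3). Calls need an adjusted p under 0.05. The interaction used the 4 groups of days 3 and 7. CPM are scaled by TMM factors over all libraries. Libraries held 10503352 to 60644284 counts, and a floor of 3 counts covers counting error only. The p-values measure the spread between animals' libraries. Scripts were tested on simulated data. Alternatives were DESeq2 1.42.0 size factors and Wald test, no filter, a filter at 1 CPM, lane 1 alone, a fit of all libraries, 2-fold as a minimum, removal of mitochondrial, haemoglobin and immunoglobulin genes before scaling, and leaving out each library. Alternatives for other genes and for day 0 comparisons of single members were chosen after seeing the data. All 35 members are named, with library values for those called between days 3 and 7 whose log2 change was 0.5 or more in size and for Nfe2l2 and Keap1. Of further lists, up to 3 genes in each direction called in both genotypes are named by largest change, besides Bach1 and Txnip. RefSeq promoter sequences gave the motifs.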

Additional observations from a re-analysis of the deposited data

Results flagged for a closer look

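Within groups of 4 to 8 libraries, 33 of 210 sets of values (35 members in 6 groups) had an end library that stood farther from its nearest neighbour than Dixon's 95% critical value allows. Chance alone gives about 1 in 20. Of the 33, 11 were the library d3_WT_381, which had a TMM factor of 0.682, at the high end of WT day 3. It held 741 CPM of Prdx1 (next 456 CPM), 276 CPM of Prdx2, 163 CPM of Prdx3, 259 CPM of Prdx5, 1139 CPM of Txn1, 101 CPM of Glrx, 364 CPM of Sod1, 465 CPM of Gpx1, 147 CPM of Gpx4, 288 CPM of Gss and 485 CPM of Taldo1.

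Another 12 were the library d7_KO_420. At the high end of KO day 7 it held 311 CPM of Prdx5, 1840 CPM of Prdx6, 256 CPM of Srxn1, 130 CPM of Glrx, 328 CPM of Sod1, 91.2 CPM of Gpx4, 338 CPM of Gclc, 139 CPM of Gclm, 249 CPM of Gss, 385.4 CPM of Taldo1 and 40.1 CPM of Hmox1. For Nfe2l2 it stood at the low end, with 198 CPM.

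Single values stood apart elsewhere. The library labelled d3_KO_345 held 5.28 CPM of Slc7a11, above the remaining KO day 3 libraries, and d3_KO_351 held 131 CPM of Gss, below them. The library d7_WT_356 held 470 CPM of Txnrd1 and d7_KO_367 held 64.9 CPM of Keap1, each the highest of its group. At day 0, d0_WT_31 was high for Cat (85.7 CPM) and Gclm (67.7 CPM) and d0_WT_41 for Txnrd2 (9.35 CPM). The low ends were d0_KO_53 for Prdx5 (110 CPM) and Txn1 (442 CPM) and d0_WT_43 for Sod3 (0.145 CPM).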

How the results depend on the processing

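Values of single genes kept direction and side of the threshold in 1450 of 1560 results refitted without 1 library and in 777 of 798 under other alternatives. Counts of members called and medians are not part of these totals. The number of members called from day 3 to day 7 was 6 to 15 in WT (9 with all libraries) and 5 to 10 in KO (8 with all libraries) when each library was left out in turn, while the share of all genes called ran from 14.8 to 25.7% in WT and from 16.0 to 22.4% in KO. KO gave 5 without each of d3_KO_349, d3_KO_350, d3_KO_351 and d3_KO_392, and WT gave 15 without d3_WT_381. The fit of all 38 libraries called 14 in WT, beside 22.4% of all genes. Asking for at least a 2-fold change left 2 members in WT and 2 in KO, and against day 0 it left 3 (WT day 3), 7 (WT day 7), 2 (KO day 3) and 6 (KO day 7). The cause of the shift in the fit of all libraries was not tested.

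Among the genes refitted one by one the sign turned for 4 that were not called, and other members near 0 turned too, since the number above 0 was 28 to 32 in WT and 27 to 32 in KO without single libraries. When single libraries were left out, the log2 fold change from day 3 to day 7 ranged for Nfe2l2 from -0.088 to 0.0052 in WT and from -0.0016 to 0.12 in KO, and for Nqo1 in KO from -0.20 to 0.014. For Bach1 it ranged from -0.11 to 0.28 in WT and from -0.27 to 0.19 in KO, with 0.0073 in KO in the fit of all 38 libraries. For Txnip it ranged from -0.049 to 0.11 in WT and from -0.29 to 0.12 in KO. No paired analysis was possible because no animal number is shared between groups. Depth limits members with few counts, such as Sod3, Gpx3 and Slc7a11.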

Other observations

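Annotated pseudogenes that carry a member's name stem could share reads with it. Tdpx-ps1, a thioredoxin peroxidase pseudogene, was the most abundant of them in any library, at up to 2.54 CPM. It was higher in KO than in WT at day 3 by 4.60 on the log2 scale and at day 7 by 4.96 (edgeR), and it was the 1 gene called between genotypes on each of these days. The library labelled d3_KO_345 held 0.0416 CPM of Tdpx-ps1, below the 1.592 to 2.498 CPM of the remaining KO day 3 libraries.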
